A study of Homo sapiens and Mus musculus with 22 samples.

Results

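The genes described here encode the nuclear-encoded parts of the mitochondrial respiratory chain and of ATP synthase. They were chosen by symbol: the NDUFA, NDUFB, NDUFC, NDUFS and NDUFV series for complex I, SDHA to SDHD for complex II, and CYC1 and the UQCR series for complex III. The COX4I, COX5, COX6, COX7 and COX8 series stood for complex IV and the ATP5 series for ATP synthase, also called complex V. A gene also had to be listed alone and not in a locus joined with other genes, and to reach 1 FPKM (fragments scaled to transcript length and to the mapped total) in at least 1 value. This left 84 of 24549 symbols in the first of 3 tables (SETDB1), 75 of 23760 in the second (ATG5) and 89 of 23849 in the third (cGAS). Over the species, 85 human and 89 mouse symbols were members, and 81 symbols occurred in both.

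Electrons enter the chain through complex I, which takes them from NADH, or complex II, which takes them from succinate and is also an enzyme of the citric acid cycle. Complex III passes them to cytochrome c, and complex IV, cytochrome c oxidase, hands them to oxygen. Complexes I, III and IV pump protons out of the mitochondrial matrix, and ATP synthase lets the protons back in through a rotating ring of c subunits and makes ATP. Core subunits carry the redox centres or the catalytic sites, and accessory subunits surround them. The symbols beginning NDUFAF belong to factors that help to assemble complex I and are not part of the finished enzyme.

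The RNA came from U2OS, a line of human osteosarcoma cells, and from L929, fibroblast cells of the mouse, and was selected for poly(A). The series has 22 samples, of which the 14 RNA samples were used and the 8 chromatin samples were not analysed here. In the SETDB1 table U2OS cells under mock treatment were either wild type (WT) or knocked out for SETDB1, an H3K9 methyltransferase, in a pair of knockouts (KO1, KO2), with 2 libraries per group. The ATG5 table held U2OS cells with a vector (Vector) or labelled ATG5.KD, a knockdown (KD) of the autophagy gene ATG5. The cGAS table held L929 cells labelled cGAS-WT or cGAS-KO, a knockout of the DNA sensor cGAS. Cells of the ATG5 and cGAS tables were mock-treated or given BIX-01294 (BIX), which inhibits EHMT1 and EHMT2, enzymes that methylate H3K9, at 10 µM for 12 h, with 1 value per group. Each value of the ATG5 table stands for 2 replicates, per the labels, so their spread is not known here. The vector, the knockdown method, the edit of each knockout and whether a knockout line is 1 clone are not stated in the labels. A treatment note attached to the RNA samples, mock ones included, names BIX for all cells, and the samples' own treatment label was followed.

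Column sums lay between 445281 and 564049 FPKM, and read totals were not given. From the steps of low FPKM values, the library cGAS-WT BIX had 0.737 of the reads of the library cGAS-KO BIX. SETDB1 mRNA was 9.98 and 9.32 FPKM in WT, 5.90 and 7.03 in KO1 and 6.89 and 7.35 in KO2. ATG5 mRNA was 11.3 FPKM in Vector mock and 10.1 in the value labelled ATG5.KD mock, but 12.3 in Vector BIX and 13.4 in the value labelled ATG5.KD BIX, which goes against the label. Mb21d1, the mouse cGAS gene, was 2.82 FPKM (mock) and 3.47 (BIX) in the libraries labelled cGAS-WT, and 1.19 and 4.41 in those labelled cGAS-KO, and reads outside an edited stretch check nothing. Of 7 mesenchymal markers 5 reached 1 FPKM in every U2OS value, while TWIST1 was listed at 0 and COL1A2 stayed at or under 0.154. U2OS also had KRT8 and KRT18, keratins of simple epithelia, at 213 FPKM or more. L929 had Vim at 1183 FPKM or more, and Thy1, a fibroblast marker, was listed at 0 in all 4 libraries.

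The members were strongly expressed and differed by complex. On the FPKM scale, which is per transcript length, the complex IV genes had the highest median level in the SETDB1 table (261 FPKM) and the assembly factors the lowest (5.63 FPKM). The same held at both ends for the ATG5 table (218 and 11.7 FPKM) and for the cGAS table (296 and 11.4 FPKM). Atp5b, the catalytic subunit of ATP synthase, was the highest member in L929, with a mean of 1237 FPKM, and COX8A, a small subunit of complex IV, the highest in the SETDB1 table, with a mean of 452 FPKM. Together the members made up 1.83% to 2.05% of the FPKM sum in the SETDB1 table. They made up 1.64% in Vector mock, 1.45% in Vector BIX, 1.67% in ATG5.KD mock and 1.56% in ATG5.KD BIX. In L929 the shares were 3.64% in cGAS-WT mock, 3.11% in cGAS-WT BIX, 3.03% in cGAS-KO mock and 2.73% in cGAS-KO BIX. The share was lower with BIX than with mock in each of these 4 backgrounds. In ATG5.KD the summed FPKM of the members was higher with BIX (8785 against 8119), as the column sum was too (564049 against 485216). In the other backgrounds the summed FPKM of the members was lower with BIX. Sums over the tables hold different genes, since 3 symbols of the rule stood in joined loci of the SETDB1 table, 14 in that of ATG5 and 0 in that of cGAS. In the ATG5 table these include COX8A, NDUFB9, NDUFS1 and ATP5L, of which a minor entry of at most 1.19 FPKM was listed alone.

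Several subunits exist as isoforms made by different genes. The c ring of ATP synthase is encoded by ATP5G1, ATP5G2 and ATP5G3, which make the same mature protein. ATP5G2 held 58.7% to 63.6% of their summed FPKM in the SETDB1 table and 58.9% to 65.8% in the ATG5 table. In L929 Atp5g2 held 47.4% to 65.1%, Atp5g3 19.5% to 32.0% and Atp5g1 15.4% to 22.2%. Isoforms known from muscle, lung and testis were nearly silent in U2OS: COX4I2 was listed at 0, COX6A2 reached 0.272 FPKM, COX7A1 reached 0.447 and COX8C reached 0.176. The testis isoform COX6B2 was the exception, at 1.51 FPKM in the value labelled ATG5.KD BIX and at or under 0.756 in the other 3 values of that table. NDUFA4L2, a paralog of the complex IV subunit NDUFA4 that is known as a hypoxia-induced gene, reached 0.187 FPKM in U2OS. In L929 Ndufa4l2 was 31.6 FPKM in cGAS-WT mock, 70.5 in cGAS-WT BIX, 47.4 in cGAS-KO mock and 30.9 in cGAS-KO BIX. It was higher with BIX in the one background and lower with BIX in the other. UQCRHL, a near-identical copy of the complex III gene UQCRH, was at or under 0.494 FPKM, and how reads were split between the copies is not stated.

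In U2OS, 4 of the 7 assembly factors of complex I rose with BIX while core subunits of complex I fell. Comparisons of 4 values were made with limma on log2(FPKM + 1), with a term for the genotype and one for the treatment, so that the genotypes serve as repeats of the treatment and their disagreement as the error. All log2 differences are on this scale, and a gene was called at an adjusted p below 0.05 (Benjamini-Hochberg over all genes tested). In bulk RNA, fewer cells with an mRNA and less of it per cell cannot be told apart. Of 74 members tested, 16 rose and 17 fell, where 65.6% of the 12290 genes tested were called (33.6% higher and 32% lower). The median log2 difference of the members was 0.05 and that of all genes 0.01. A smaller share of the members than of all genes was called.

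NDUFAF5, a hydroxylase that acts on a core subunit while complex I is assembled, had 5.65 FPKM in Vector mock and 17.9 in Vector BIX, and 5.23 in ATG5.KD mock and 18.0 in ATG5.KD BIX. Both BIX values were above both mock values, and the rise was 1.56 on the log2 scale (SE 0.0900, limma adjusted p = 1.46e-05). NDUFAF4 went from 4.55 to 8.47 FPKM in Vector cells and from 4.88 to 12.1 in the values labelled ATG5.KD, a rise of 0.96 (SE 0.117). NDUFAF1, which acts on an early membrane-bound intermediate, went from 5.74 to 9.71 and from 5.12 to 10.0 FPKM, a rise of 0.76 (SE 0.0985). NDUFAF2, which sits on the nearly complete enzyme, went from 31.9 to 50.2 and from 40.6 to 61.5 FPKM, a rise of 0.61 (SE 0.0741). NDUFAF3, the binding partner of NDUFAF4, was the 1 factor of the 7 that fell, from 52.0 to 36.6 and from 43.6 to 38.0 FPKM. Its log2 difference was -0.34 (SE 0.0919, limma adjusted p = 0.0122), so the partners moved in opposite directions. NDUFAF6 (log2 difference 0.10) and NDUFAF7 (-0.07) were not called. With median centring, quantile normalization and columns scaled to an equal FPKM sum, 4 factors were called higher and 1 lower each time.

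**Figure D1:**
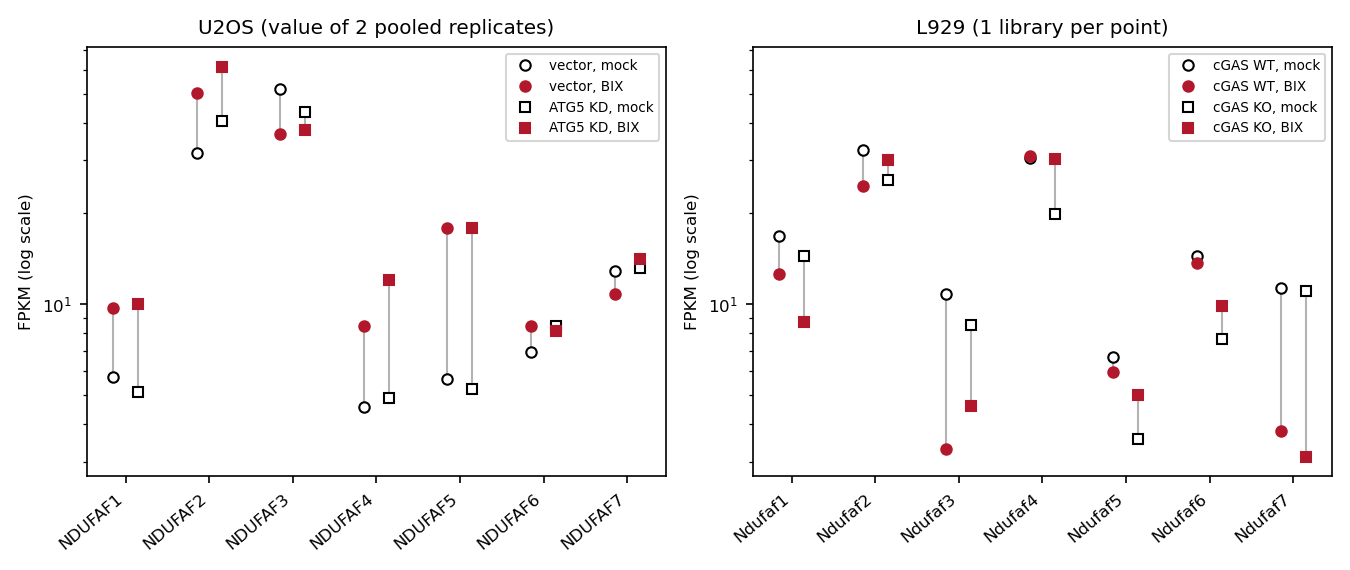
FPKM on a log axis of the 7 complex I assembly factors in U2OS (each point a value that stands for 2 replicates) and in L929 (each point 1 library), with open symbols for mock, red symbols for BIX, circles for Vector or cGAS-WT and squares for ATG5.KD or cGAS-KO. NDUFAF5 lies at 5.65 and 5.23 FPKM with mock and at 17.9 and 18.0 with BIX in U2OS, while in L929 Ndufaf3 and Ndufaf7 lie lower with BIX in both backgrounds.

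The core subunits of complex I, which hold its flavin and iron-sulfur clusters, had negative log2 differences in 6 of 6 tested genes, also under each of the 3 scalings. NDUFS8 went from 131 to 82.9 FPKM in Vector cells and from 127 to 94.1 in the values labelled ATG5.KD, a log2 difference of -0.54 (SE 0.0823, limma adjusted p = 0.00086). NDUFS7 fell from 29.9 to 20.1 and from 35.5 to 24.9 FPKM (-0.52). Both carry iron-sulfur clusters on the path to quinone, and for each of them both BIX values lay below both mock values. NDUFV1, which binds NADH, also fell (-0.27), while NDUFV2 (-0.08) and NDUFS3 (-0.12) were not called.

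Of the 23 accessory subunits of complex I, 4 rose and 4 fell. NDUFS4, a late-joining subunit known from Leigh syndrome, went from 51.7 to 79.0 and from 58.5 to 91.0 FPKM (0.62, SE 0.0722). NDUFA12, which takes the place of NDUFAF2 at the end of assembly, rose by 0.38, and this call was lost with quantile normalization (0.14). NDUFV3, a subunit of the NADH-binding module, went from 11.0 to 5.71 and from 11.7 to 7.66 FPKM (-0.69, SE 0.104). NDUFA8 (-0.50), NDUFB7 (-0.32) and NDUFA2 (-0.25) were the other accessory subunits that fell.

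In complex II the flavoprotein SDHA went from 61.5 to 43.1 and from 63.7 to 49.1 FPKM and fell (-0.44, SE 0.0768, limma adjusted p = 0.00170). Its partners, the iron-sulfur subunit SDHB and the membrane anchors SDHC and SDHD, each had a log2 difference of 0.10 and were not called, and with quantile normalization or an equal FPKM sum all 4 genes were negative. In complex III the Rieske protein UQCRFS1 (-0.27) and the small subunit UQCR11 (-0.36) fell, and UQCRH (0.34), UQCR10 (0.25) and UQCRC2 (0.20) rose, of which 0 were called higher with quantile normalization. Complex IV depended on the scaling as well: 10 of 10 genes had positive log2 differences, from 0.04 to 0.40, but 9 with median centring, 7 with an equal FPKM sum and 4 with quantile normalization. COX7B went from 231 to 288 FPKM in Vector cells and from 292 to 405 in the values labelled ATG5.KD and rose by 0.40 (SE 0.0788). NDUFA4 (0.29) and COX6C (0.27) rose too, and both calls were lost with quantile normalization and with an equal FPKM sum.

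In ATP synthase ATP5H, a subunit of the peripheral stalk, went from 257 to 144 and from 265 to 205 FPKM and fell (-0.60, SE 0.112). The c-ring gene ATP5G2, at 251 to 161 and 282 to 234 FPKM, fell by 0.45 on the log2 scale. The F1 subunits ATP5D (-0.32) and ATP5A1 (-0.31) also fell, and the stalk subunit ATP5F1 rose (0.24). ATP5S, coupling factor B, which shares the prefix but is no standard subunit, went from 5.04 to 2.48 and from 5.51 to 2.65 FPKM (-0.82, SE 0.103), the largest fall of the members.

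The balance of rises and falls depended on the scale. With median centring 10 members rose and 21 fell, with quantile normalization 7 and 31, and with an equal FPKM sum 8 and 29. Of all genes 3623 rose and 4584 fell of 12290, 3659 and 4352 of 12290, and 3005 and 5208 of 12326, in that order. The median of the members was then -0.03, -0.15 and -0.11, and that of all genes was -0.07, -0.05 and -0.15. With quantile normalization the members thus lay below all genes. Marker sums moved with BIX too: that of the mesenchymal list went from 1865 to 1478 FPKM in Vector and from 1705 to 1481 in the values labelled ATG5.KD, and that of the epithelial list from 599 to 779 and from 840 to 1174. Their part in the result was not tested.

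**Figure D2:**
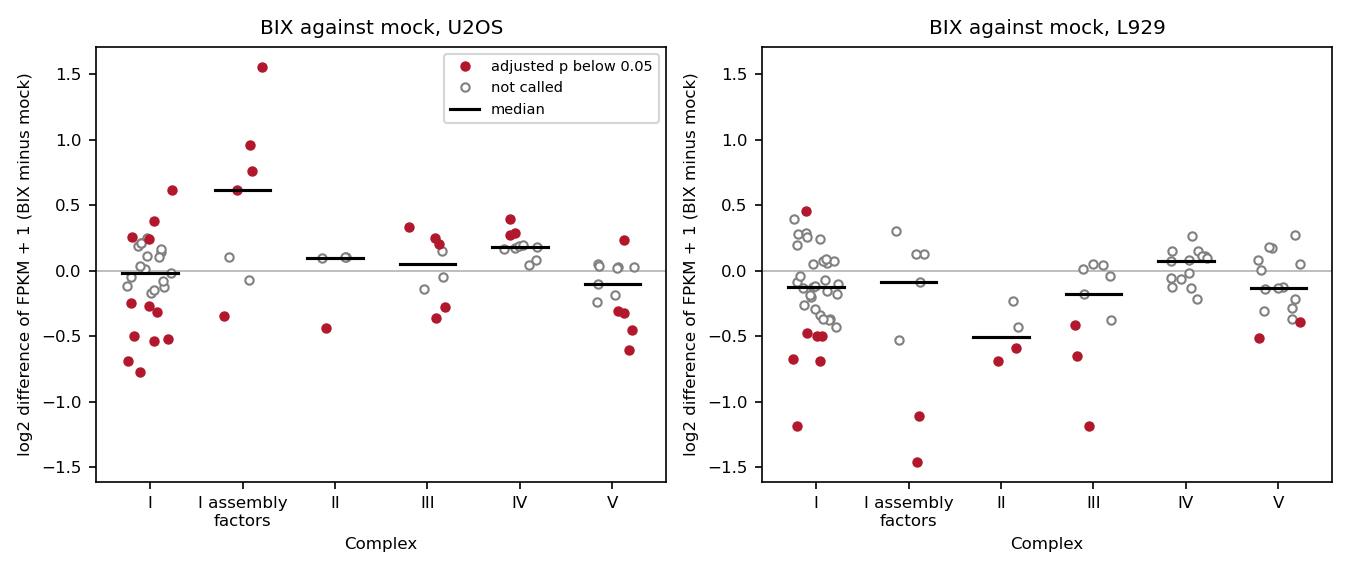
Log2 difference between BIX and mock of each tested member on the log2(FPKM + 1) scale, by complex, in U2OS (left) and L929 (right), with red points called by limma at an adjusted p below 0.05, open points not called and a line at the median of each complex. In U2OS 4 of 7 assembly factors are called higher, and in L929 15 called genes are lower and 1 is higher. The other name matches, such as ATP5S, are not drawn.

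Promoters of these genes are known for sites of NRF1, of ETS-family factors such as GABP and of YY1. The RefSeq table on GRCh38.p14 held a window of 250 bases before to 50 bases after the start of transcription for 71 of the 85 human members. Each line gives 200 bases before to 10 bases after the start, 5′ to 3′ on the strand of the gene, with motifs in capitals. NDUFAF5 is shown because it rose most with BIX in U2OS (chr20:13784828-13785037, plus strand), SDHA as a gene that fell and has repeated NRF1 motifs (chr5:218120-218329, plus strand), and NDUFS8 as a core subunit that fell and has repeated CCAAT motifs (chr11:68030481-68030690, plus strand).
NDUFAF5: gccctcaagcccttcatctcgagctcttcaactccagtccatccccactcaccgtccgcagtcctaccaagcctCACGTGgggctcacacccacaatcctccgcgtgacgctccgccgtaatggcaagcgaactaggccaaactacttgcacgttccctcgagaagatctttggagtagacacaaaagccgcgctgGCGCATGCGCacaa
SDHA: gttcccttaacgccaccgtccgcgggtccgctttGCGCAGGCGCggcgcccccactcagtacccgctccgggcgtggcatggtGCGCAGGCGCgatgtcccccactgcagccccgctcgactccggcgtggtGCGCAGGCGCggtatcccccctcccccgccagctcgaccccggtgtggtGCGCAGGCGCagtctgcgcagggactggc
NDUFS8: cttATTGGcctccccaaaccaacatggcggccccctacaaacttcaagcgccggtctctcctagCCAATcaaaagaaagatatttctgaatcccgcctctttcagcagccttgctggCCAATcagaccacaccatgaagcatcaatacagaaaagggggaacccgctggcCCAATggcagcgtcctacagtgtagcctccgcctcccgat

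The capitals in NDUFAF5 are the E-box CACGTG, which starts at -126 from the start of transcription, and an NRF1 motif, which starts at -4. In SDHA they are 4 NRF1 motifs, which start at -166, -117, -68 and -19. In NDUFS8 they are 4 copies of CCAAT, the first of them on the other strand, where it reads ATTGG. Motifs were searched on both strands by exact letters, with N for any base. The NRF1 motif, searched with any base at 1 position, so that the copies in NDUFAF5 and SDHA differ there, was found in 16 of the 71 member windows (22.5%) and in 6.28% of all 27305 windows. CCGGAAGT, an ETS motif, was in 12.7% of member windows and 4.44% of all, and AAGATGGC, a YY1 motif, in 16.9% and 3.03%. The cAMP response element TGACGTCA was in 7.04% and 1.98%, the E-box in 11.3% and 7.43%, CCAAT in 35.2% and 35.7%, and TGATGNAA, a motif of ATF4 with C/EBP partners, in 1.41% and 3.67%.

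Of 14 members with a window that rose with BIX in U2OS, 3 held the NRF1 motif (21.4%), and of 14 that fell 4 did (28.6%). CCAAT was in 9 of the 14 that rose (64.3%) and in 5 of the 14 that fell (35.7%), and the YY1 motif in 3 (21.4%) and 1 (7.14%). A match describes letters and not a bound site, and these counts carry no test.

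In L929, 15 of 88 members tested fell with BIX, in complexes I, II and III, ATP synthase and the assembly factors, and 1 rose. Over all 11001 genes 38.3% were called (18.5% higher and 19.8% lower). On this scale a smaller share of the members than of all genes was called, in either direction. For the falls this did not hold with quantile normalization, with an equal FPKM sum or with no filter on low values. The median was -0.12 against -0.05 for all genes. Ndufaf7, a methyltransferase that acts during assembly of complex I, went from 11.3 FPKM in cGAS-WT mock to 3.78 in cGAS-WT BIX and from 11.1 to 3.11 in the libraries labelled cGAS-KO, a log2 difference of -1.46 (SE 0.219, limma adjusted p = 0.00128). Ndufaf3 went from 10.8 to 3.32 and from 8.50 to 4.58 FPKM (-1.11, SE 0.244), a call lost with no filter on low values. Uqcr11, a small subunit of complex III, went from 194 to 79.7 and from 148 to 68.5 FPKM (-1.19, SE 0.154). For each of these genes both BIX values lay below both mock values. Marker sums moved with BIX as well: that of the fibroblast list went from 5884 to 4636 FPKM in the libraries labelled cGAS-WT and from 5960 to 4800 in those labelled cGAS-KO, and Cd68, a macrophage marker, from 41.2 to 80.3 and from 5.11 to 29.6 FPKM. The part of these changes in the result was not tested.

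The 7 core subunits of complex I had negative log2 differences, from -1.18 to -0.13, also under each of the 3 scalings, and 1 of them was called. This was Ndufs7, which went from 148 to 63.4 and from 96.7 to 42.8 FPKM (-1.18, SE 0.159, limma adjusted p = 0.000826). Complex II had the lowest median of the complexes, -0.51, and 4 of 4 genes were negative under every scaling. Sdhb went from 151 to 92.8 and from 103 to 63.4 FPKM (-0.69, SE 0.154) and Sdha from 116 to 72.0 and from 80.1 to 56.0 FPKM (-0.59, SE 0.161). Sdhd (-0.43) and Sdhc (-0.23) were not called. In complex III Uqcrc1 (-0.65) and Cyc1, which carries the haem of cytochrome c1 (-0.42), also fell.

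Of the accessory subunits of complex I, Ndufb10 (-0.69), Ndufb7 (-0.67), Ndufv3 (-0.50), Ndufa9 (-0.50) and Ndufb9 (-0.48) fell. Ndufb3 was the 1 member that rose, from 62.3 to 83.1 and from 54.2 to 77.4 FPKM (0.46, SE 0.162, limma adjusted p = 0.0484), and this call was lost with quantile normalization, an equal FPKM sum or no filter. In ATP synthase Atp5g1 (-0.51) and Atp5o (-0.39) fell. Of 14 complex IV genes 0 were called by limma. Their median was 0.08, but -0.05 with quantile normalization and -0.02 with an equal FPKM sum. With no filter on low values 6 of 89 members were called, with quantile normalization 27 of 88 and with an equal FPKM sum 23 of 89, all of them lower. Of all genes 614 of 16797, 2187 of 11001 and 2686 of 10995 were lower in these settings. In each of these settings the share that fell was larger for the members than for all genes.

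The BIX response of a gene was compared between the lines by its 4 log2 ratios of BIX over mock, 2 in U2OS and 2 in L929, again with limma. Of 72 members with matching symbols, 8 had a higher response in U2OS than in L929 and 0 a lower one, where 26.7% of 10108 genes differed (15.4% higher and 11.3% lower). The median difference was 0.20 for the members and 0.06 for all genes. NDUFAF5 had log2 ratios of 1.51 in Vector and 1.60 in ATG5.KD cells, and -0.14 in cGAS-WT and 0.39 in cGAS-KO cells, a difference of 1.43 (SE 0.228, limma adjusted p = 0.0209). NDUFAF1 had ratios of 0.67 and 0.85 in U2OS and -0.39 and -0.67 in L929 (1.29, SE 0.177), so its ratios had opposite signs in the lines. NDUFAF7 had ratios of -0.24 and 0.10 in U2OS and -1.37 and -1.56 in L929 (1.39, SE 0.189). SDHB had ratios of 0.09 and 0.12 in U2OS and -0.69 and -0.69 in L929 (0.79, SE 0.108), while SDHA was not among the 8. UQCR11 (0.83), NDUFS7 (0.66), NDUFA9 (0.64) and ATP5O (0.41, limma adjusted p = 0.0499) completed them. For UQCR11 and NDUFS7 the ratio was negative in all 4 backgrounds and lower in L929. The lines also differ in species, table and culture medium, which cannot be told apart. A fit without 1 background rests on 1 ratio in that line, so its calls are not used and only its median differences are given here. For the members they were 0.26 without Vector, 0.13 without ATG5.KD, 0.16 without cGAS-WT and 0.24 without cGAS-KO. For all genes they were 0.07, 0.06, 0.04 and 0.07 in the same order.

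Over the mean of the 4 backgrounds, 9 members rose and 24 fell, where 55.7% of genes were called (27.4% higher and 28.3% lower). The core subunits of complex I that fell included NDUFS7 (-0.85, SE 0.0592), NDUFS8 (-0.45), NDUFV1 (-0.35) and NDUFS3 (-0.25). The ratios of these 4 were negative in each of the 4 backgrounds. SDHA (-0.51), NDUFV3 (-0.60), NDUFB7 (-0.50) and UQCRC1 (-0.40) also fell with negative ratios in all 4. NDUFS4 (0.51), NDUFB3 (0.31) and NDUFA12 (0.31) were the accessory subunits of complex I that rose. In complex IV COX7B (0.27), COX6C (0.21), NDUFA4 (0.19) and COX7C (0.15) rose, but with quantile normalization 0 genes of this complex were called higher and 2 lower, and with an equal FPKM sum 0 and 1. These calls use the same values as the comparisons within each line and are no separate evidence.

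**Figure D3:**
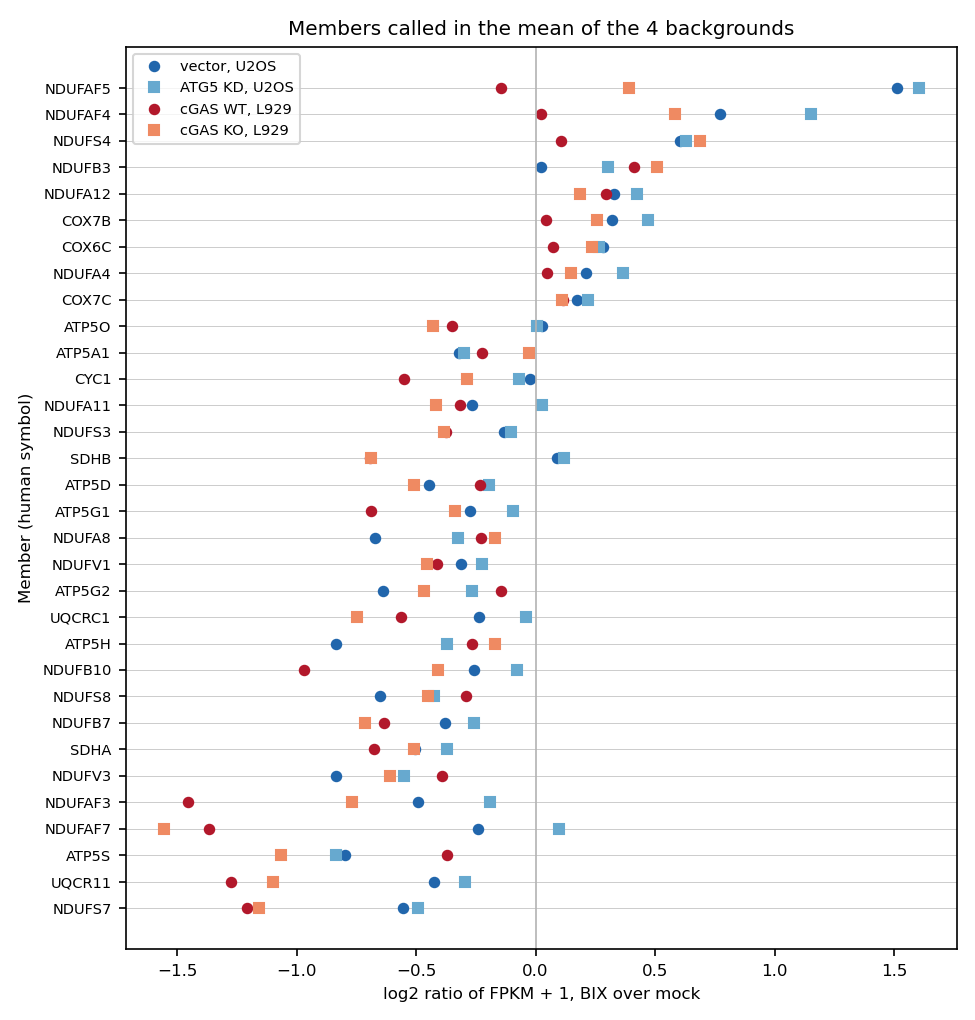
Log2 ratio of FPKM + 1, BIX over mock, of 32 members called over the mean of the 4 backgrounds, with 1 point per background. NDUFAF5 has ratios of 1.51 and 1.60 in U2OS against -0.14 and 0.39 in L929, and NDUFS7 is negative in all 4.

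In U2OS the values labelled ATG5.KD were higher than the Vector values for most members. Of 74 tested, 18 rose and 0 fell, where 14.7% of genes were called (9.06% higher and 5.68% lower), and 69 of 74 had positive log2 differences. The median was 0.22 for the members and 0.02 for all genes. ATP5G1, a c-ring gene, was 97.3 FPKM (mock) and 80.2 (BIX) in Vector and 131 and 123 in the values labelled ATG5.KD, a rise of 0.52 (SE 0.0788, limma adjusted p = 0.00877). Both values labelled ATG5.KD lay above both Vector values. NDUFB3, a small accessory subunit of complex I, was 35.6 and 36.1 FPKM against 44.4 and 55.0 (0.45, SE 0.0899). COX7B (0.41), NDUFA6 (0.40), the stalk subunit ATP5F1 (0.39), UQCR10 (0.38), NDUFA1 (0.37), ATP5I (0.37), UQCRB (0.36) and the core subunit NDUFV2 (0.35) rose as well. Calls came from complex I (10 of 29), complex III (2 of 8), complex IV (1 of 10) and ATP synthase (3 of 13), with 1 assembly factor, NDUFAF2 (0.31), and COX7A2L (0.32), which joins complexes into supercomplexes. Complex II had 0 of 4 called.

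The sizes were small: at mock 0 of 74 members were 1.5-fold apart, where 3.94% of genes were, and with BIX 2 of 75 were, both higher, where 7.82% were. The ratio of BIX over mock was larger in the values labelled ATG5.KD than in Vector for 60 of 74 members. Over all 12290 genes it was larger for 52.2%. The median difference was 0.13 for the members and 0.01 for all genes. With no filter on low values 0 members were called, with quantile normalization 2 and with an equal FPKM sum 5. Calls over all genes changed too. They were 0 higher and 1 lower with no filter, 566 and 644 with quantile normalization and 514 and 1952 with the equal sum. With the equal sum the median of all genes moved to -0.13 and that of the members to 0.05, which is 0.18 above all genes, and the assembly factors then had a median of -0.05. The epithelial marker sum was 599 and 779 FPKM in Vector (mock, BIX) and 840 and 1174 in the values labelled ATG5.KD, nearly all of it KRT8 and KRT18, with CDH1 at or under 0.601 and 3 of the 4 markers listed there at 1 FPKM or more in each value. The part of that difference in the result was not tested.

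Libraries labelled cGAS-KO had lower levels of the members than those labelled cGAS-WT. Of 88 tested, 0 rose and 24 fell, where 14.9% of genes were called (7.26% higher and 7.64% lower). Log2 differences were negative for 74 of 88, with a median of -0.35 against -0.00 for all genes. Uqcrc1, a large subunit of complex III, was 296 FPKM (mock) and 200.0 (BIX) in the libraries labelled cGAS-WT and 169 and 100.2 in those labelled cGAS-KO (-0.90, SE 0.145, limma adjusted p = 0.00392). Atp5b was 1509 and 1473 against 939 and 1028 FPKM (-0.60, SE 0.111). Atp5d, another F1 subunit, was 402 and 342 against 253 and 178 FPKM (-0.80, SE 0.140), and the c-ring gene Atp5g3 412 and 361 against 230 and 216 FPKM (-0.79, SE 0.133). For each of these 4 genes both values labelled cGAS-KO lay below both labelled cGAS-WT.

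All 7 core subunits of complex I were negative, also under each of the 3 scalings, and those that fell included Ndufs8 (-0.64), Ndufv1 (-0.61) and Ndufs7 (-0.58), of which 0 were called with an equal FPKM sum. Ndufa8 (-0.78) and Ndufb10 (-0.76) were the accessory subunits with the largest falls. In complex II Sdhc, at 149 and 122 against 84.1 and 74.4 FPKM (-0.76, SE 0.154), and Sdhb (-0.54) fell, and 4 of 4 genes were negative under every scaling. In complex IV Cox5a (-0.67), Cox6b1 (-0.64) and Cox6a1 (-0.62) fell, and so did Cox7a1, the muscle isoform, at 3.77 and 4.35 against 1.34 and 1.33 FPKM (-1.12, SE 0.251). Of the 7 assembly factors 0 were called by limma. At mock 25 of 89 members were 1.5-fold lower, where 10.7% of genes were, and with BIX 15 of 88, where 14.8% were.

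With no filter on low values 0 members were called, and with an equal FPKM sum 15 (1 higher and 14 lower). Over all genes 21 were higher and 11 lower with no filter, and 1128 and 619 with the equal sum. The libraries also differed in fibroblast markers: Col1a2 was 49.4 and 27.5 FPKM in those labelled cGAS-WT and 486 and 309 in those labelled cGAS-KO, and Fn1 was 18.6 and 20.7 against 348 and 222. Others of the list went the other way, with S100a4 at 3953 and 3199 against 3075 and 2932 FPKM and Pdgfrb at 65.7 and 59.0 against 35.8 and 45.8. The whole fibroblast marker sum was 5884 and 4636 against 5960 and 4800 FPKM. The blood marker sum was 41.2 and 80.5 FPKM against 5.11 and 30.3, nearly all of it Cd68, the 1 of 4 listed markers at 1 FPKM or more, with Ptprc at or under 0.0873. The part of these differences in the result was not tested.

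**Figure D4:**
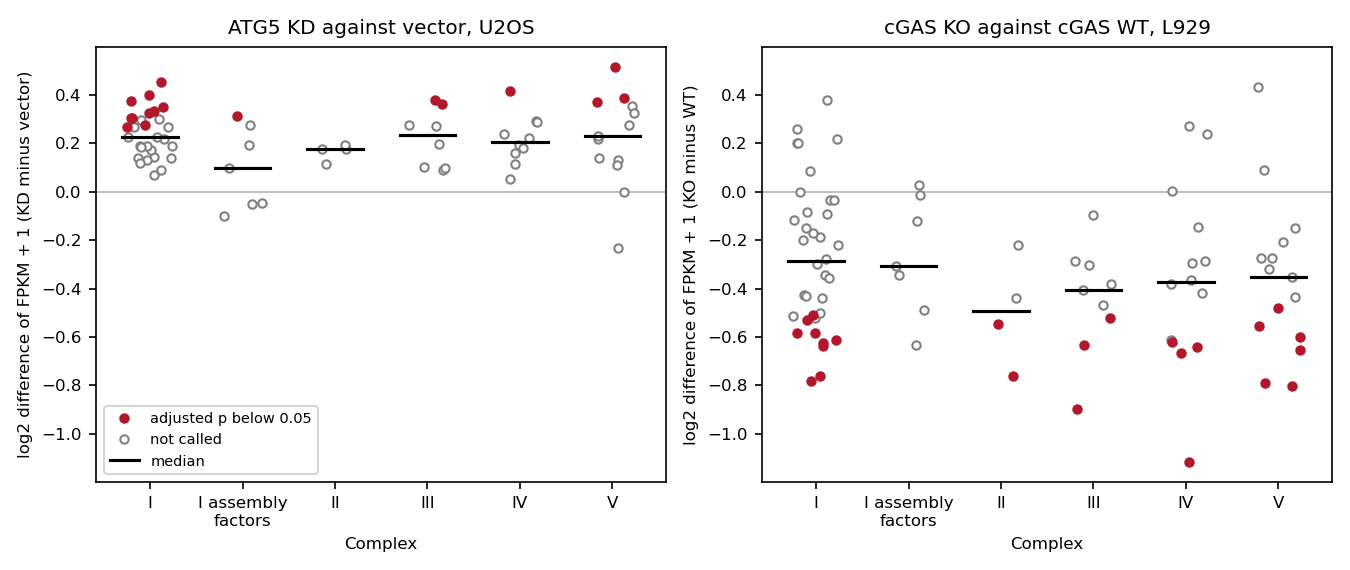
Log2 difference of each tested member on the log2(FPKM + 1) scale between the values labelled ATG5.KD and Vector in U2OS (left) and between the libraries labelled cGAS-KO and cGAS-WT in L929 (right), by complex, with red points called by limma, open points not called and a line at the median of each complex. On this scale the medians of the complexes lie above 0 on the left and below 0 on the right, and on the left the median of the assembly factors falls to -0.05 with an equal FPKM sum.

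In the SETDB1 knockouts no member passed the test. Of 84 members tested with both knockouts averaged and set against WT, 0 were called by limma, where 3.24% of 12543 genes were called. In KO1 alone 0 were called (2.43% of genes), in KO2 alone 0 (2.46%), and 0 between KO1 and KO2 (0%). The median of the members was -0.09 and that of all genes -0.01. COX7C, an accessory subunit of complex IV, was 405 and 496 FPKM in WT, 323 and 364 in KO1 and 347 and 299 in KO2 (-0.43, SE 0.122, limma adjusted p = 0.0987). ATP5G3 was 43.7 and 47.4 FPKM in WT, 37.2 and 37.8 in KO1 and 39.0 and 33.4 in KO2 (-0.30, SE 0.0956, limma adjusted p = 0.157). COX7C and ATP5G3 were named as the most changed of their complexes. Log2 differences of the 36 complex I genes went from -0.34 to 0.24, so the largest change among them was a fall. NDUFA6, an accessory subunit with the highest of these differences, was 70.8 and 75.2 FPKM in WT, 86.7 and 78.9 in KO1 and 96.9 and 82.8 in KO2 (0.24, limma adjusted p = 0.356). NDUFA6-AS1, the RNA antisense to it, had a log2 difference of 0.31 (limma adjusted p = 0.354), and as the use of strand in counting is not given, reads of this pair cannot be told apart.

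The WT libraries, and the KO2 libraries, differed among themselves by as much as the knockouts did from WT. Between the KO2 libraries 78 of 84 members were higher in replicate 1, with a median log2 difference of 0.23. Between the WT libraries 12 of 84 were, with a median of -0.12, and between the KO1 libraries 47 of 84, with a median of 0.05. The median of the members against WT was -0.17 without WT replicate 1, -0.02 without WT replicate 2, -0.16 without KO2 replicate 1 and -0.02 without KO2 replicate 2. Nothing says that these libraries came from separate cultures, so the p values measure only the spread between these samples, which may be technical.

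**Figure D5:**
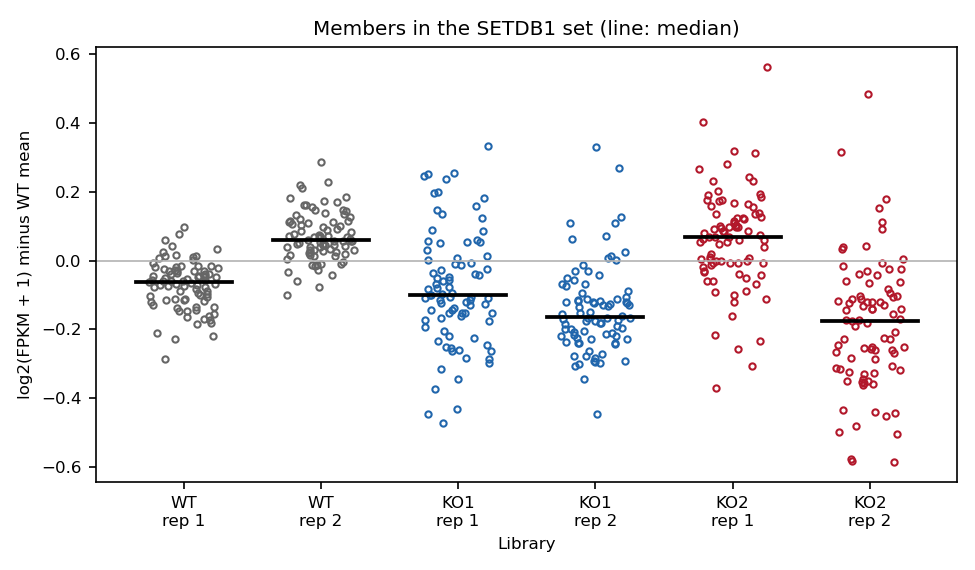
Each point is 1 of the 84 members in 1 library of the SETDB1 table, as log2(FPKM + 1) minus the mean of the WT libraries, with a line at the median of the library. The medians are -0.06 and 0.06 for WT, -0.10 and -0.16 for KO1 and 0.07 and -0.17 for KO2, so that the KO2 libraries lie on both sides of the WT mean.

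Genes around the pathway were read from lists outside the symbol rule. With BIX in U2OS, 6 of 13 transcription regulators of the pathway rose and 1 fell, where 33.6% of all genes were higher and 32% lower. MYC, which activates growth genes, was 21.8 FPKM (mock) and 167 (BIX) in Vector and 27.8 and 188 in the values labelled ATG5.KD (2.80, SE 0.0782). PPRC1, a coactivator of the PGC-1 family, rose by 1.25, and TFB2M, a factor that starts transcription of mitochondrial DNA, by 1.15. In L929 8 of 14 rose and 2 fell, where 18.5% of all genes were higher and 19.8% lower. Myc was 96.4 and 456 FPKM in the libraries labelled cGAS-WT (mock, BIX) and 58.3 and 248 in those labelled cGAS-KO (2.15, SE 0.146). Ppargc1a, which encodes PGC-1 alpha, was 4.86 and 11.6 against 4.48 and 39.0 FPKM (1.99, SE 0.347).

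Of the assembly factors outside the rule, 9 of 35 rose and 11 fell with BIX in U2OS, where 33.6% of all genes were higher and 32% lower, and in L929 0 of 39 rose and 13 fell, where 18.5% were higher and 19.8% lower. In U2OS both shares were below those of all genes. COA3, an assembly factor of complex IV, fell in U2OS (-1.06), and TMEM126B, which acts with NDUFAF1, rose there (1.01). Of the citric acid cycle genes 6 of 16 rose and 6 fell in U2OS, where OGDH fell most (-1.06), and 0 of 17 rose and 5 fell in L929. CYCS, cytochrome c, rose with BIX in U2OS (0.53). Mitochondrial ribosomal proteins rose in 24 of 67 cases and fell in 12 in U2OS, and rose in 3 of 74 and fell in 15 in L929. The share that rose in U2OS and the share that fell in L929 were near those of all genes.

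Both genotype comparisons held calls outside the chain. In the values labelled ATG5.KD 22 of 67 mitochondrial and 35 of 59 cytosolic ribosomal protein genes rose and 0 of either fell, where 9.06% of all genes were higher and 5.68% lower. In the libraries labelled cGAS-KO 12 of 74 mitochondrial ribosomal protein genes fell and 2 rose, and 18 of 76 cytosolic ones fell and 2 rose, where 7.64% of all genes were lower and 7.26% higher. Of the citric acid cycle genes 6 of 17 fell there, among them Mdh2 (-0.78), and cytochrome c fell too (Cycs, -0.93). In the SETDB1 knockouts 0 genes of these lists were called by limma, where 3.24% of 12543 genes were called with both knockouts averaged. Genes encoded in mitochondrial DNA were not analysed here.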

How the data were processed

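Poly(A) RNA was sequenced as read pairs, per the labels' protocols. The authors deposited FPKM in separate files, which were joined here into 3 tables. The submitters' processing notes name FastQC, cutadapt, TopHat2 and Cufflinks with the builds hg19 and mm10, without roles or versions. The deposited FPKM give no read counts, so no count test was run and the depth per sample is unknown beyond relative values.

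Values were taken as log2(FPKM + 1). Genes with at least 1 FPKM in at least 2 values were tested with limma 3.58.1 (trended empirical Bayes, R 4.3.3), with Benjamini-Hochberg adjustment over all genes tested and a threshold of 0.05. Short noncoding RNAs were left out, and the entry with the highest mean was kept for a repeated symbol. SETDB1 groups were fitted together without a replicate block. The ATG5 and cGAS tables were fitted with genotype and treatment terms, which leaves their interaction as the error. Single pairs of values were compared by a 1.5-fold limit with no test. The fits were tested on simulated data.

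Members named are those called, up to 10 per direction by size, the most changed and the most abundant of each complex, and isoform pairs, with up to 3 genes from each other list. CYCS, Cycs, NDUFAF6, members not called and other members named beside these were added after their values were seen. Some items are not reported here. The members and lists were chosen with earlier results of these data known. Alternatives were a pseudocount of 0.1, a filter of 5 FPKM, no filter, median centring, quantile normalization, summed entries, a replicate block and leaving out libraries or backgrounds. Scaling columns to an equal FPKM sum was added after seeing the data.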

Additional observations from a re-analysis of the deposited data

Results flagged for a closer look

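The response to BIX differed between U2OS and L929 for 8 members by limma's test of the difference itself (adjusted p over 10108 genes), and all 8 were higher in U2OS. They are 8 of 72 members compared, where 26.7% of all genes differed and 15.4% were higher in U2OS, so the members' share was below that of all genes. The difference of the log2 ratios was 1.43 for NDUFAF5 (adjusted p = 0.0209), 1.39 for NDUFAF7 (0.0176) and 1.29 for NDUFAF1 (0.0179), the assembly factors among them. It was 0.83 for UQCR11 (adjusted p = 0.0220), 0.79 for SDHB (0.0176), 0.66 for NDUFS7 (0.0254), 0.64 for NDUFA9 (0.0246) and 0.41 for ATP5O (0.0499). Each line gave 2 ratios, so the calls could not be checked by leaving out a background, which leaves 1 ratio in a line.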

How the results depend on the processing

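Of the results with a test for a named gene, 376 kept their direction and their side of the threshold under an alternative, 68 lost the call and 0 reversed. The number of members called against Vector in the values labelled ATG5.KD was 18. It was 0 with no filter on low values, 2 with quantile normalization and 5 with columns scaled to an equal FPKM sum. At a pseudocount of 0.1 it was 25, and at a filter of 5 FPKM 25. Over all genes 1114 were higher and 698 lower. With no filter 0 and 1 were, with quantile normalization 566 and 644, and with the equal sum 514 and 1952. With BIX in L929 the number of members called was 16, but 6 with no filter, 27 with quantile normalization and 23 with an equal FPKM sum. In the libraries labelled cGAS-KO the number of members called was 24, but 0 with no filter and 15 with an equal FPKM sum. Over all genes 799 were higher and 840 lower, but 21 and 11 with no filter and 1128 and 619 with the equal sum. The 68 lost calls include named genes of both genotype comparisons with no filter. For the response of U2OS against L929 the number of members called was 8. It was 0 without Vector, 0 without ATG5.KD, 13 without cGAS-WT and 16 without cGAS-KO. Each of these fits rests on 1 ratio in a line, so no conclusion about the members is drawn from their counts. Among the other settings, the call of ATP5O was lost at a pseudocount of 0.1, with no filter and with each of the 3 scalings. In the SETDB1 knockouts the number of members called was 0, but 1 with an equal FPKM sum. It ranged from 0 to 0 when each library was left out in turn. In these cases the cause was not tested. With the replicate block 0 members were called in the SETDB1 table, and over all genes 351 were higher and 155 lower, against 309 and 98 without it. Deviations of libraries with the same number correlated over all genes at 0.376 for WT and KO1, 0.00370 for WT and KO2 and 0.201 for KO1 and KO2, and over the members at 0.501, 0.163 and 0.106. The labels name no shared batch, and the main fit did not pair the samples by number. In the estimate of relative reads, a share of the low genes lay at the common step of a pair of libraries. This share was 10.4% to 21.4% for pairs of the same number and 5.88% to 8.00% for pairs of different number. Whether the numbers mark a shared preparation was not tested. No library could be left out of the ATG5 and cGAS tables, since no residual degree of freedom then remains. The FPKM files give no depth, so counting error could not be set beside low genes such as Cox7a1.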
